A study of Homo sapiens with 50 samples.

Results

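The aryl hydrocarbon receptor gene AHR and 4 genes that the receptor is known to switch on, CYP1A1, CYP1B1, TIPARP and AHRR, were followed in A549 cells, an established human lung adenocarcinoma line. They are 5 of the 18239 genes measured, and 14 probe sets of the arrays are annotated to them and, where a gene has several, its brightest one on average was used. They were chosen by the signals at 1.5 h after treatment, when CYP1B1 and TIPARP were lower in medium without serine, so every value at 1.5 h is given here as a description, with no test. The 50 Affymetrix HG-U219 arrays form 17 groups. In 1 group, called before the change, are 3 arrays of A549 cells growing in RPMI. All other cells had been in basal medium with non-essential amino acids, with serine or without it, for 24 h when 1 uM compound 16 or its vehicle DMSO was added, and were harvested 0, 1.5, 6 or 24 h later. These 16 groups hold 3 arrays each, apart from medium with serine and DMSO at 1.5 h, which has 2. The series title speaks of small-molecule activation of PKM, a pyruvate kinase of glycolysis, and of a need for serine. All groups are of 1 cell line, and no label states that the replicates were grown as separate cultures.

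The aryl hydrocarbon receptor is a transcription factor that waits in the cytoplasm with the chaperone HSP90 and its partner p23. A ligand, such as a dioxin or a breakdown product of tryptophan, sends it to the nucleus, where it pairs with ARNT and binds DNA at sites with the core GCGTG. CYP1A1 and CYP1B1 encode enzymes that oxidise its ligands and are classic readouts of the pathway in lung epithelium. AHRR encodes a repressor that competes for ARNT, and TIPARP encodes a mono-ADP-ribosyltransferase that acts back on the receptor.

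By RefSeq's annotation of GRCh38.p14, CYP1A1 lies at chr15:74719542-74725528, CYP1B1 at chr2:38067509-38076151, TIPARP at chr3:156674590-156706770, AHRR at chr5:321714-438285 and AHR at chr7:17298652-17346147. RefSeq promoter windows, of which the 250 bases before each annotated start were searched, matched 4 of the 5 genes with 7 windows, all but CYP1B1. The core GCGTG was searched on both strands, and so was its longer form TNGCGTG, which contains it. Of all 35116 such windows 32.2% hold at least 1 core and 4.5% the longer form. Among the 7 windows, those of CYP1A1, the first of TIPARP and both of AHRR hold 1, 2, 1 and 2 cores; the remaining windows of TIPARP and that of AHR hold 0. Only the first window of AHRR holds the longer form. A match is a description of letters and not a binding site. The first windows of the 3 target genes that hold a core are shown because these genes moved in the comparisons that follow; capitals mark the core, written GCGTG or, on the opposite strand, CACGC.
CYP1A1, chr15:74725529-74725778, minus strand: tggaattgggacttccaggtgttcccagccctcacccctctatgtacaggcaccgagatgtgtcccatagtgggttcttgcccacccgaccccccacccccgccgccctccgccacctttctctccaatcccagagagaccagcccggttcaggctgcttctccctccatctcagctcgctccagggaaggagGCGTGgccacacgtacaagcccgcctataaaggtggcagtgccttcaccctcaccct
TIPARP, chr3:156674340-156674589, plus strand: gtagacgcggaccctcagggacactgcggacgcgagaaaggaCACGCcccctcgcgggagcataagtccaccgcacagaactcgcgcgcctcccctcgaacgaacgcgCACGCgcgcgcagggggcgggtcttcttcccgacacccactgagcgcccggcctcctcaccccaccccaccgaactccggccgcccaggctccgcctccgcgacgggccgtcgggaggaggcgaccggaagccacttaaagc
AHRR, chr5:321464-321713, plus strand: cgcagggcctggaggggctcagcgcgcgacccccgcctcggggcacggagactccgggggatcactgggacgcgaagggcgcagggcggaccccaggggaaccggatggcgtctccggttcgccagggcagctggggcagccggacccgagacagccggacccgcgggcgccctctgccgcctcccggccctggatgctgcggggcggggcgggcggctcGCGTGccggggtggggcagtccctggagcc

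Values are log2 probe set signals, so 1 unit is a doubling; a difference is given ± its SE from 1 limma fit of all 50 arrays. A gene was called changed at a Benjamini-Hochberg adjusted p under 0.05 over all 18239 genes in that comparison. The p-values thus rest on the spread among replicate arrays, which may be technical. Array medians ran from 5.40 to 5.54, no arrays were identical, and precision is limited by how few arrays a group has. The markers of the labelled epithelial line were present, with list means of 11.72 to 12.00 for 5 of 5 (KRT8, KRT18, KRT19, EPCAM and CDH1) over the 17 groups. List means were 4.37 to 4.59 for 4 fibroblast markers, 4.44 to 4.79 for 3 endothelial markers and 4.52 to 5.25 for 3 of 4 leukocyte markers, among which PTPRC ran from 3.98 to 4.21, CD3E from 4.16 to 4.75 and CD14 from 5.25 to 6.82.

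**Figure D1:**
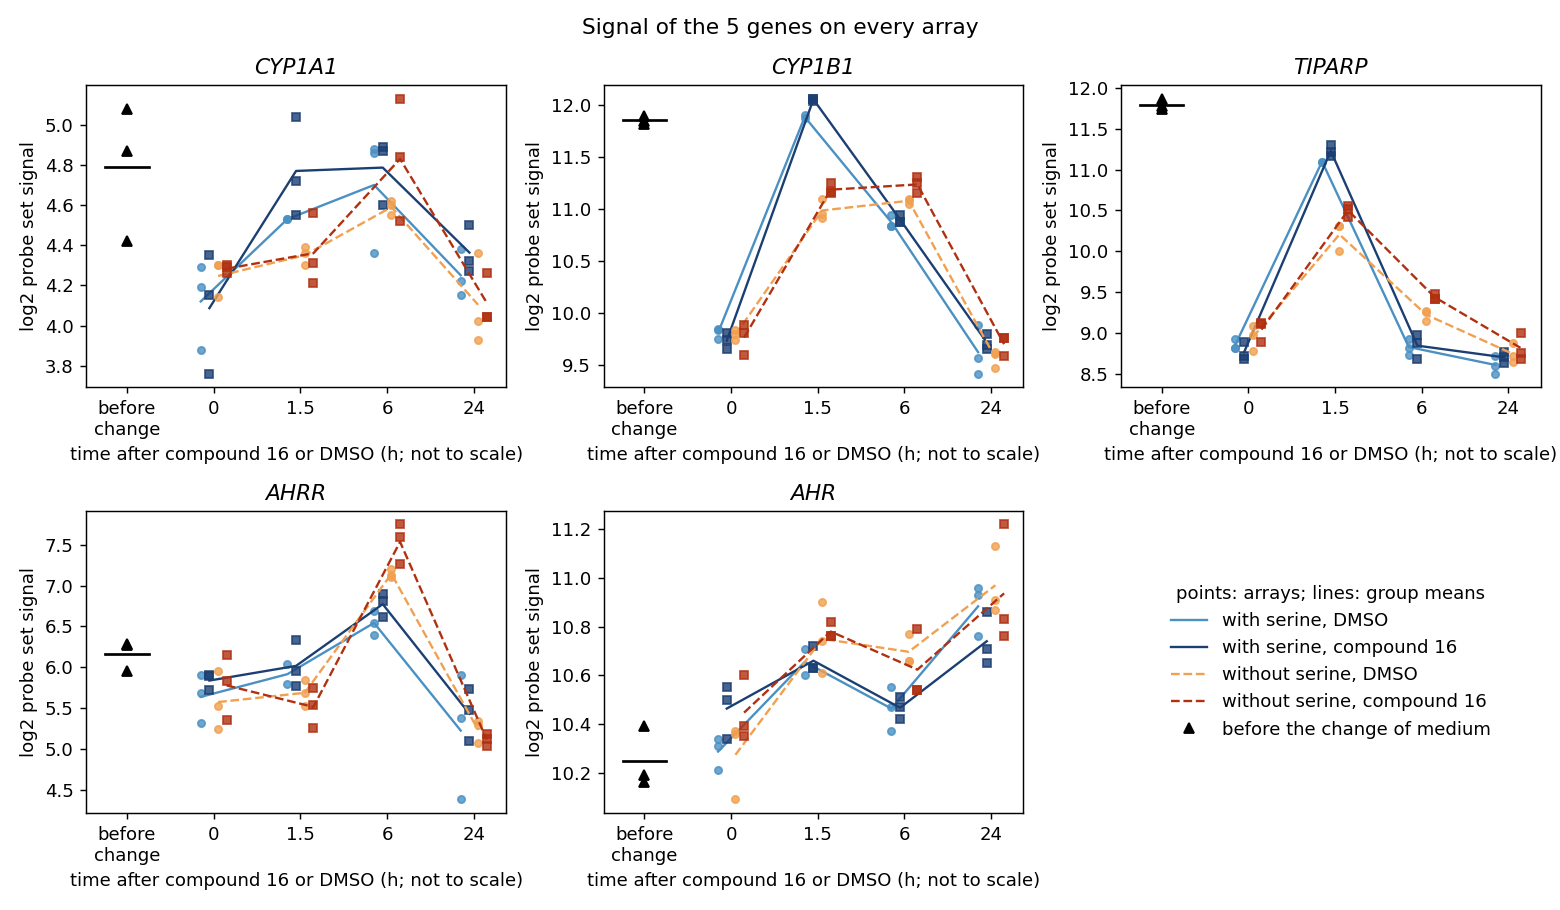
Log2 probe set signal of each gene on every array (points) by hours after compound 16 or DMSO (x axis, not to scale), with lines through the means of the 4 arms and a bar at the mean of the 3 arrays before the change of medium. CYP1B1 and TIPARP stand near 11.8 before the change and under 10 in every arm at 0 h and at 24 h; AHRR peaks at 6 h in every arm.

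TIPARP had the widest spread of the 5 genes, its group means running over 3.19 log2 units, from 8.61 with serine and DMSO at 24 h to 11.80 before the change of medium. The ranges were 2.48 for CYP1B1, 2.42 for AHRR, 0.75 for CYP1A1 and 0.72 for AHR, against a median of 0.48 over all genes. Ranked by that range, TIPARP stood at the 99.9th percentile of genes, CYP1B1 and AHRR both at the 99.7th, CYP1A1 at the 82.3rd and AHR at the 80.8th. The ranges take in the 1.5 h groups, by which the genes were chosen, so the ranks are a description only. The highest mean of CYP1B1, 12.05, is that of compound 16 with serine at 1.5 h. Within groups the arrays of CYP1B1 and TIPARP lay close, with pooled SDs of 0.09 and 0.11, while AHRR was noisier at 0.30. The SDs of CYP1A1 and AHR were 0.20 and 0.12.

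In order of its group means, TIPARP was highest before the change, then at 1.5 h with serine (11.23 under compound 16 and 11.10 in DMSO), then at 1.5 h without serine (10.50 and 10.21), then at 6 h without serine (9.44 and 9.22), with the other 10 groups between 8.61 and 9.04. Of its 16 pairs of neighbours in that order, 7 did not overlap and 5 lay more than 2 SE apart. These counts take in the 1.5 h groups, by which the gene was chosen, and are a description and not a test. The top of the CYP1B1 order held compound 16 with serine at 1.5 h (12.05), DMSO with serine at 1.5 h (11.88) and the cells before the change (11.85), with 4 groups without serine at 1.5 h and 6 h (10.99 to 11.24) and the 6 h groups with serine (10.87 and 10.90) below them. The 8 groups at 0 h and 24 h lay at 9.57 to 9.81. Of its 16 neighbour pairs 4 did not overlap and 2 lay more than 2 SE apart, again a description that takes in the 1.5 h groups. No share over all genes is given beside the counts of TIPARP and CYP1B1, so they do not show whether either gene is unusual. For CYP1A1, AHRR and AHR no neighbouring groups lay more than 2 SE apart, so their orders are not resolved step by step.

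The comparison of cells before the change with those of 0 h in DMSO asks what 24 h in the new medium did. TIPARP, CYP1B1 and CYP1A1 were all lower in the new medium, whether or not it held serine, whereas AHR itself showed no call. The cells before the change and those of 0 h also lie in separate blocks of the running numbers in the sample titles, so medium, time in culture and block cannot be told apart. Before the change TIPARP read 11.78, 11.74 and 11.87; at 0 h it read 8.93, 8.82 and 8.82 with serine and 8.98, 8.78 and 9.08 without. The groups do not come near each other. The differences were -2.94 ± 0.09 with serine (0.13-fold, limma adjusted p = 1.11e-24) and -2.85 ± 0.09 without (0.139-fold, adjusted p = 3.39e-24). CYP1B1 read 11.89, 11.82 and 11.85 before the change, then 9.85, 9.84 and 9.75 with serine and 9.80, 9.74 and 9.84 without. Its differences were -2.04 ± 0.08 with serine (0.243-fold, limma adjusted p = 8.02e-22) and -2.06 ± 0.08 without (0.24-fold, adjusted p = 3.71e-22).

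CYP1A1 was a dim gene, its mean over all arrays lying under the 40th percentile of genes. It read 4.87, 5.08 and 4.42 before the change against 4.29, 4.19 and 3.88 with serine and 4.30, 4.30 and 4.14 without, with no overlap. The differences were -0.67 ± 0.16 (adjusted p = 0.00138) and -0.54 ± 0.16 (adjusted p = 0.00772); fitted on the compared arrays alone, the adjusted p were 0.0525 and 0.0596, and without the array that read 5.08 the latter was 0.0901. AHRR, the repressor, read 6.27, 6.28 and 5.95 before the change. At 0 h it read 5.68, 5.91 and 5.32 with serine, which does not overlap, and 5.24, 5.53 and 5.95 without, which does. Its difference of -0.53 ± 0.23 with serine was not called (adjusted p = 0.103). That of -0.59 ± 0.23 without serine was just under the threshold (adjusted p = 0.0498) and was lost in 4 other ways of fitting and on leaving out any of 4 single arrays, with adjusted p up to 0.241. AHR was within 0.04 ± 0.10 of its level before the change in both media (adjusted p = 0.847 and 0.887), with 95% intervals of -0.16 to 0.24 and -0.17 to 0.23. In all, 7 of 10 values of the 5 genes were called and all 7 were lower; of all genes, 21.7% were called in the comparison with serine and 28.6% in that without. Among the leukocyte markers, CD14 was at 6.82 before the change and at 6.48 with and 6.27 without serine at 0 h, CD3E was at 4.71, 4.69 and 4.35, and PTPRC was at 4.21 before the change and at or under 4.07 after it; their part in these results was not tested.

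**Figure D2:**
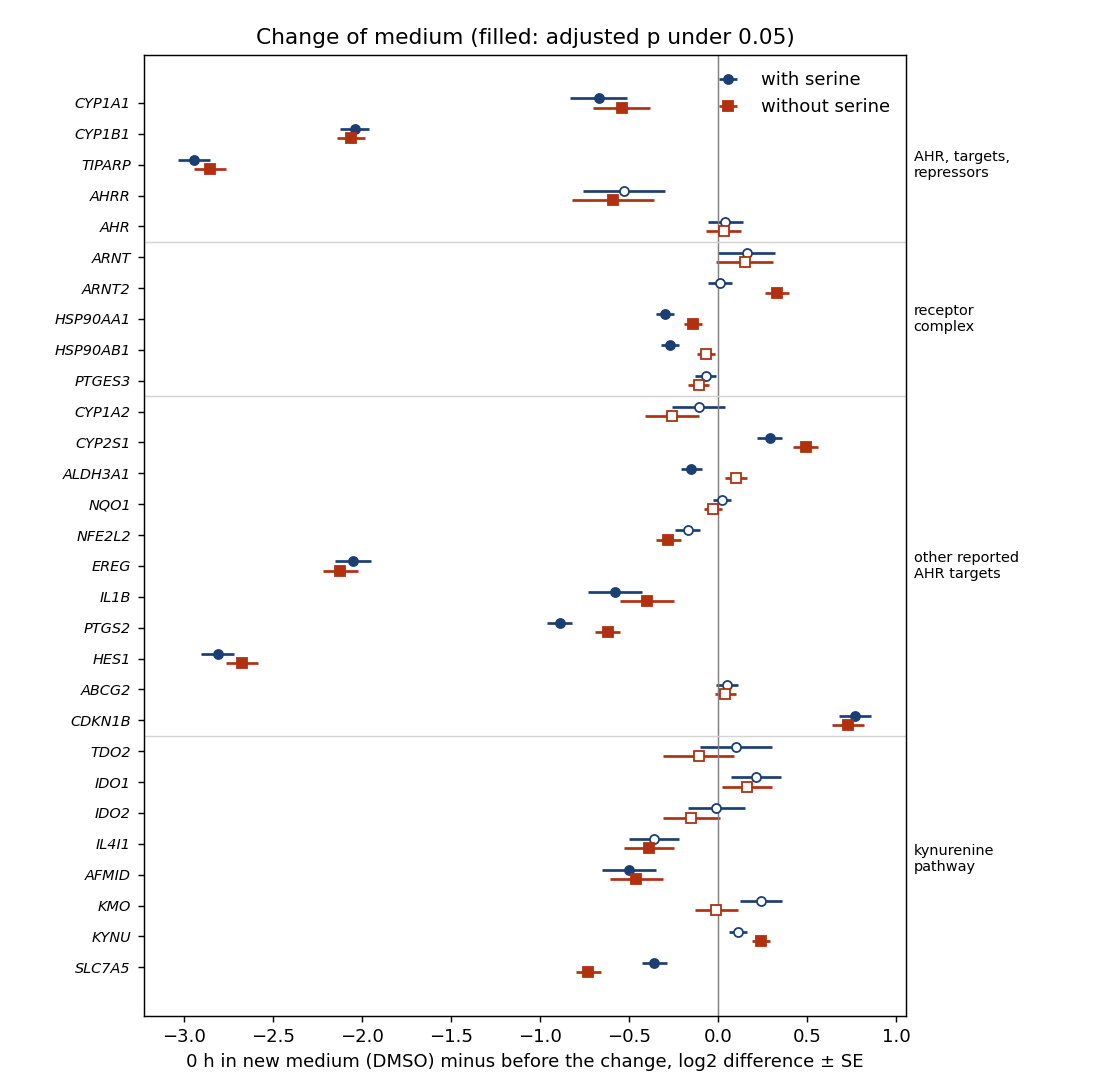
Log2 difference ± SE (x axis) between cells after 24 h in the new medium (0 h, DMSO) and before the change, with serine (circles) and without (squares), for the 5 genes and for 3 lists of pathway genes; filled symbols have an adjusted p under 0.05. TIPARP (-2.94 with serine), HES1 (-2.81), EREG (-2.05) and CYP1B1 (-2.04) lie farthest to the left.

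Other genes of the pathway moved in both directions at the change. The counts of each list stand against shares of all genes called of 21.7% with serine and 28.6% without. Of 11 measured genes out of 13 reported elsewhere as receptor targets, 5 fell and 2 rose in each medium, with a list median of -0.15 with serine and -0.26 without, against 0.01 over all genes in both. HES1, which encodes a transcriptional repressor, fell by 2.81 ± 0.09 with serine (limma adjusted p = 3.66e-24). EREG, which encodes the growth factor epiregulin, fell by 2.12 ± 0.10 without serine (adjusted p = 9.63e-19), and PTGS2, the inducible cyclooxygenase, fell by 0.89 ± 0.07 with serine (adjusted p = 2.25e-12). In the receptor complex, of 5 measured out of 6, HSP90AA1 and HSP90AB1, the cytosolic HSP90 chaperones, fell with serine by 0.30 ± 0.05 and 0.27 ± 0.05 (adjusted p = 4.27e-06 and 4.09e-05). ARNT2, a paralog of the partner ARNT, rose by 0.33 ± 0.07 without serine (adjusted p = 0.000231). The list's counts were 0 up and 2 down with serine and 1 up and 1 down without, with medians of -0.07 in both media. Of the 8 genes of tryptophan uptake and the kynurenine pathway, which makes ligands, 2 fell with serine (median 0.04), and 3 fell and 1 rose without (median -0.13). SLC7A5, a subunit of a transporter of tryptophan and other large amino acids, fell by 0.73 ± 0.07 without serine (adjusted p = 1.33e-10). KYNU, the kynureninase, rose there by 0.24 ± 0.05 (adjusted p = 0.000334). AFMID, which makes kynurenine from its formyl form, fell by 0.50 ± 0.15 with serine (adjusted p = 0.0129).

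At 1.5 h, CYP1B1 and TIPARP stood far above their 0 h levels in all 4 arms, also in the DMSO arms, and the groups did not overlap with 0 h. With serine and DMSO, CYP1B1 read 11.90 and 11.87 on the 2 arrays, 2.07 ± 0.09 above 0 h. With serine and compound 16 it read 12.06, 12.04 and 12.06, a difference from 0 h of 2.32 ± 0.08. Without serine it was lower, at 10.91, 11.10 and 10.95 in DMSO and 11.25, 11.16 and 11.15 under compound 16, which is 1.19 ± 0.08 and 1.42 ± 0.08 above 0 h. TIPARP was at 11.10 on both arrays with serine and DMSO, and at 11.17, 11.22 and 11.30 with serine and compound 16. Without serine it read 10.00, 10.31 and 10.31 in DMSO and 10.42, 10.56 and 10.52 under compound 16. Its differences from 0 h were 2.24 ± 0.10 and 2.46 ± 0.09 with serine and 1.26 ± 0.09 and 1.46 ± 0.09 without.

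The difference between media at 1.5 h, which is how the genes were chosen, was -0.90 ± 0.09 in DMSO and -0.87 ± 0.08 under compound 16 for CYP1B1 (0.537-fold and 0.548-fold). For TIPARP it was -0.89 ± 0.10 and -0.73 ± 0.09. The other genes of the group, which the choice did not name as lower, differed less: AHRR by -0.23 ± 0.26 and -0.50 ± 0.23, CYP1A1 by -0.18 ± 0.18 and -0.41 ± 0.16, and AHR by 0.10 ± 0.11 and 0.12 ± 0.10. AHRR at 1.5 h was within 0.28 of its 0 h level in every arm, with group means of 5.51 to 6.02. AHR was 0.20 to 0.48 above 0 h. Compound 16 minus DMSO at 1.5 h was 0.17 ± 0.09 with serine and 0.20 ± 0.08 without for CYP1B1, and 0.13 ± 0.10 and 0.29 ± 0.09 for TIPARP.

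At 6 h, the difference between medium without serine and medium with it was tested. On the probe sets used, TIPARP was called higher without serine in both arms, and CYP1B1 and AHRR under compound 16. The change of this difference from 1.5 h to 6 h was not tested. TIPARP read 9.27, 9.25 and 9.15 without serine against 8.82, 8.73 and 8.93 with serine in DMSO, and 9.41, 9.48 and 9.42 against 8.87, 8.68 and 8.98 under compound 16. No array overlapped. The differences were 0.40 ± 0.09 in DMSO (1.32-fold, limma adjusted p = 0.00666) and 0.60 ± 0.09 under compound 16 (1.51-fold, adjusted p = 6.76e-06). The call in DMSO was lost with only the compared arrays in the fit (adjusted p = 0.155) and without the array of serine and DMSO that read 8.73 (adjusted p = 0.0519).

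CYP1B1 at 6 h read 11.31, 11.15 and 11.25 without serine against 10.94, 10.88 and 10.88 with it under compound 16, a difference of 0.34 ± 0.08 (1.26-fold, adjusted p = 0.00245, and 0.0528 on the compared arrays alone). In DMSO it read 11.09, 11.10 and 11.05 against 10.84, 10.84 and 10.94, which do not overlap either, but the difference of 0.21 ± 0.08 was not called (adjusted p = 0.177). On the mean of its 5 probe sets the difference in DMSO was 0.24 and was called (limma adjusted p = 0.0011). AHRR read 7.75, 7.59 and 7.27 against 6.90, 6.61 and 6.81 under compound 16. Its difference of 0.77 ± 0.23 (1.7-fold) had an adjusted p of 0.0223, which rose to between 0.0717 and 0.115 without the array that read 6.61, 7.75 or 7.59. In DMSO it read 7.10, 7.20 and 7.13 against 6.54, 6.69 and 6.40, a difference of 0.60 ± 0.23 that was not called (adjusted p = 0.189). AHR differed by 0.23 ± 0.10 and 0.16 ± 0.10 and CYP1A1 by -0.11 ± 0.16 and 0.05 ± 0.16, with no call. So on the probe sets used 1 of 5 genes was called in DMSO and 3 of 5 under compound 16 at 6 h. Of all genes, 3.18% and 11.8% were called there.

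At 0 h, after 24 h in either medium, and at 24 h none of the 5 genes was called for serine lack in either arm, by limma. All 5 had differences from -0.06 to 0.13 in DMSO at 0 h, where 5.91% of all genes were called, and from -0.15 to 0.14 at 24 h, where 0.159% were. Under compound 16 the shares of all genes called were 4.12% at 0 h and 4.39% at 24 h. The differences there ran wider, from -0.32 for AHRR at 24 h to 0.27 for TIPARP at 0 h. CYP1A1 differed by -0.25 at 24 h, with arrays at 4.26, 4.04 and 4.04 without serine against 4.50, 4.27 and 4.32, which do not overlap. TIPARP came nearest, at 0 h under compound 16, with 9.12, 8.89 and 9.11 without serine against 8.68, 8.72 and 8.89 with it; the difference of 0.27 ± 0.09 had an unadjusted p of 0.00445 and an adjusted p of 0.0796. It was the only one of these 20 values with an unadjusted p under 0.05, and it was called without the dim genes (adjusted p = 0.0446), with a trended robust prior (0.0382) and without the array that read 8.89 in medium without serine (0.0456). On the mean of its 5 probe sets CYP1B1 was called lower without serine at 0 h in DMSO, by -0.20 (adjusted p = 0.00754), against -0.02 ± 0.08 for the one used. The interval for CYP1B1 at 24 h was -0.22 to 0.10 in DMSO and -0.18 to 0.14 under compound 16.

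**Figure D3:**
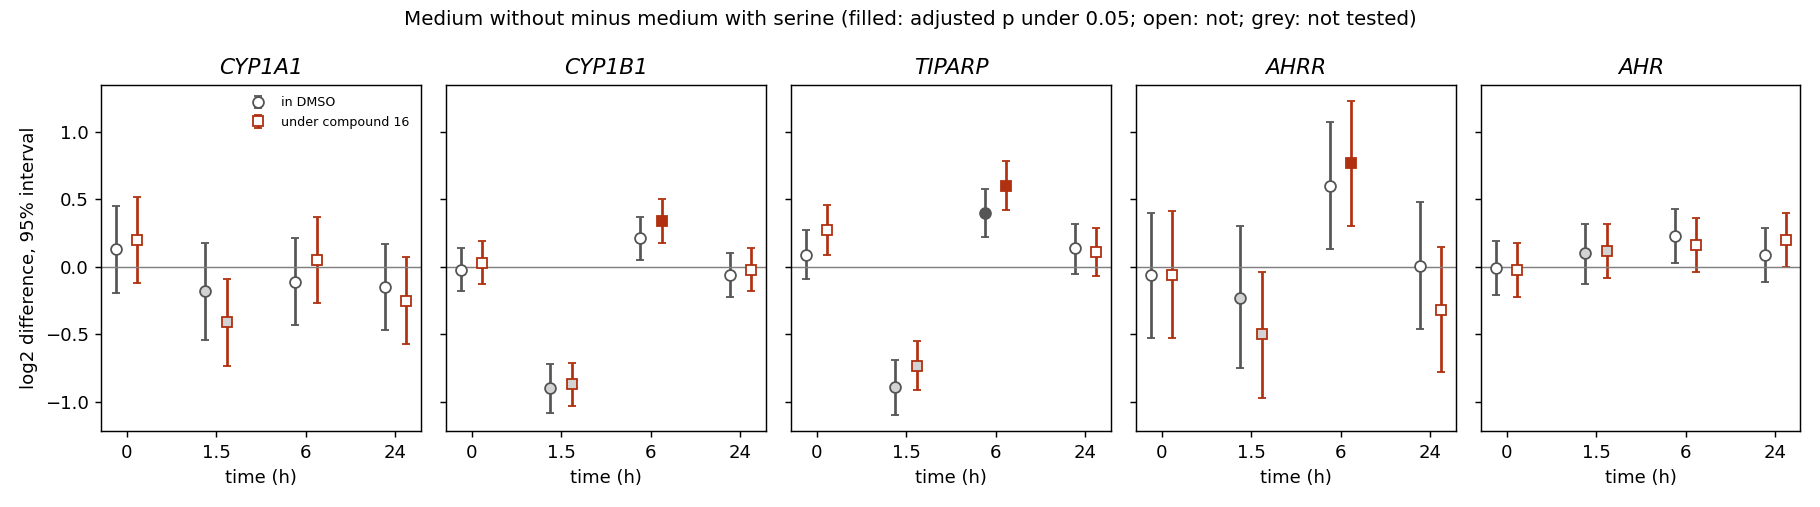
Log2 difference between medium without and with serine (y axis, bars are 95% intervals of the limma fit) for each gene at 0, 1.5, 6 and 24 h, in DMSO (circles) and under compound 16 (squares). CYP1B1 and TIPARP lie between -0.90 and -0.73 at 1.5 h, which was not tested, and between 0.21 and 0.60 at 6 h.

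In the pathway lists, PTGS2 was higher without serine at 6 h, in DMSO by 0.53 ± 0.07 (limma adjusted p = 6.27e-06) and under compound 16 by 0.58 ± 0.07 (adjusted p = 1.52e-07). CDKN1B, which encodes the cell cycle inhibitor p27, rose by 0.39 ± 0.09 in DMSO (adjusted p = 0.00506), and EREG rose by 1.02 ± 0.10 under compound 16 (2.03-fold, adjusted p = 1.53e-09) but had a difference of 0.11 ± 0.10 in DMSO (adjusted p = 0.74). At 6 h the list of reported targets had 2 of 11 higher and 0 lower in DMSO (median 0.09, against 0.00 over all genes) and 4 higher and 1 lower under compound 16 (median 0.15, against -0.01). ALDH3A1, an aldehyde dehydrogenase, rose at 0 h in DMSO by 0.25 ± 0.06 (adjusted p = 0.00387). The transporter gene ABCG2 fell at 24 h under compound 16 by 0.37 ± 0.06 (adjusted p = 0.000117). HSP90AA1 fell at 6 h by 0.17 ± 0.05 in DMSO (adjusted p = 0.0269) and by 0.50 ± 0.05 under compound 16 (adjusted p = 1.85e-10), and HSP90AB1 by 0.30 ± 0.05 under compound 16 (adjusted p = 2.5e-05), though in DMSO at 0 h HSP90AB1 was raised by 0.21 ± 0.05 (adjusted p = 0.00681). ARNT2 rose at 0 h by 0.32 ± 0.07 in DMSO and 0.41 ± 0.07 under compound 16 (adjusted p = 0.00257 and 0.000252). SLC7A5 fell at 0 h by 0.37 ± 0.07 and 0.38 ± 0.07 (adjusted p = 0.000911 and 0.00092). Over the 3 tested times the receptor complex list had 3 calls higher and 1 lower among 15 values in DMSO, and 4 higher and 2 lower among 15 under compound 16. The ligand supply list had 0 higher and 1 lower among 24 values in DMSO, and 1 higher and 1 lower among 24 under compound 16. At 0, 6 and 24 h the shares of all genes called were 5.91%, 3.18% and 0.159% in DMSO and 4.12%, 11.8% and 4.39% under compound 16.

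Compound 16 gave no call for any of the 5 genes against DMSO at 0, 6 or 24 h, in either medium, by limma. Of the 15 values without serine 1 had an unadjusted p under 0.05, and of the 15 with serine 0 had. Without serine, the shares of all genes called were 0% at 0 h (1318 genes at an unadjusted p under 0.05), 2.72% at 6 h and 7.06% at 24 h. With serine they were 0% at 0 h and 0% at 6 h (1029 and 1105 genes at an unadjusted p under 0.05), and 1.37% at 24 h. The one value was that of TIPARP without serine at 6 h, where the compound arrays (9.41, 9.48 and 9.42) all lay above those of DMSO (9.27, 9.25 and 9.15). The difference was 0.22 ± 0.09 (1.16-fold), with an unadjusted p of 0.0223 and an adjusted p of 0.257. CYP1B1 and AHRR differed there by 0.16 ± 0.08 and 0.39 ± 0.23, also with no call (adjusted p = 0.398 and 0.514). With serine at 6 h the same 3 genes differed by 0.02 ± 0.09, 0.03 ± 0.08 and 0.22 ± 0.23.

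On the probe sets used, the tested compound effects have 95% intervals that end at 0.32 or below for CYP1B1 and at 0.40 or below for TIPARP. Any rise larger than these lies outside the intervals of these probe sets only. Another probe set of CYP1B1, with a mean of 8.09, had higher group means under compound 16 without serine. They were 7.31 against 6.84 in DMSO at 0 h, and 7.28 against 6.93 at 24 h. At 6 h without serine they were 8.91 against 8.83. With serine they were 7.12 under compound 16 and 7.24 in DMSO at 0 h. At 6 h and 24 h with serine the means under compound 16 were higher, at 8.69 against 8.56 and 6.99 against 6.74. The intervals of AHRR reach 0.86, and those of CYP1A1 reach 0.56. For AHR at 24 h the probe set decides: the one used gave -0.03 ± 0.10 without serine, whereas the mean of its 3 probe sets gave -0.32 (adjusted p = 0.00616). On the mean of its 5 probe sets CYP1B1 gave 0.18 there (adjusted p = 0.0127), against 0.13 ± 0.08 for the one used.

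The difference of the compound effects between media, without serine minus with serine, ran from -0.33 to 0.20 over the 15 values, with 0 called by limma and 0 at an unadjusted p under 0.05. Of all genes 0% were called at 0 h (1070 at an unadjusted p under 0.05), 0.899% at 6 h and 1.28% at 24 h. Among the reported targets EREG did pass, at 6 h. It rose under compound 16 without serine by 0.74 ± 0.10 (1.67-fold, adjusted p = 6.01e-06), and its effect exceeded that with serine by 0.91 ± 0.15 (adjusted p = 2e-04). At 24 h without serine, PTGS2 and ABCG2 fell by 0.33 ± 0.07 and 0.28 ± 0.06 (adjusted p = 0.00165 and 0.00268). Of the list's 11 genes, 1 was called higher at 6 h, where 2.72% of all genes were called, and 1 higher and 2 lower at 24 h, where 7.06% were, in that medium, with medians of 0.05 and -0.04 against -0.01 and 0.00 over all genes, and 0 of 11 at any time with serine. In the receptor complex HSP90AA1 fell without serine at 6 h by 0.30 ± 0.05 (adjusted p = 3.74e-05). With serine at 6 h it did not fall, at 13.27 under compound 16 and 13.25 in DMSO. Its compound effects differed between media by -0.32 ± 0.07 (adjusted p = 0.00421). HSP90AB1 fell without serine at 6 h by 0.18 ± 0.05 (adjusted p = 0.0364). ARNT2 rose at 24 h without serine by 0.23 ± 0.07 (adjusted p = 0.0333). With serine, HSP90AA1 fell at 24 h by 0.18 ± 0.05 (adjusted p = 0.0351). SLC7A5 rose at 24 h without serine by 0.28 ± 0.07 (adjusted p = 0.00876).

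**Figure D4:**
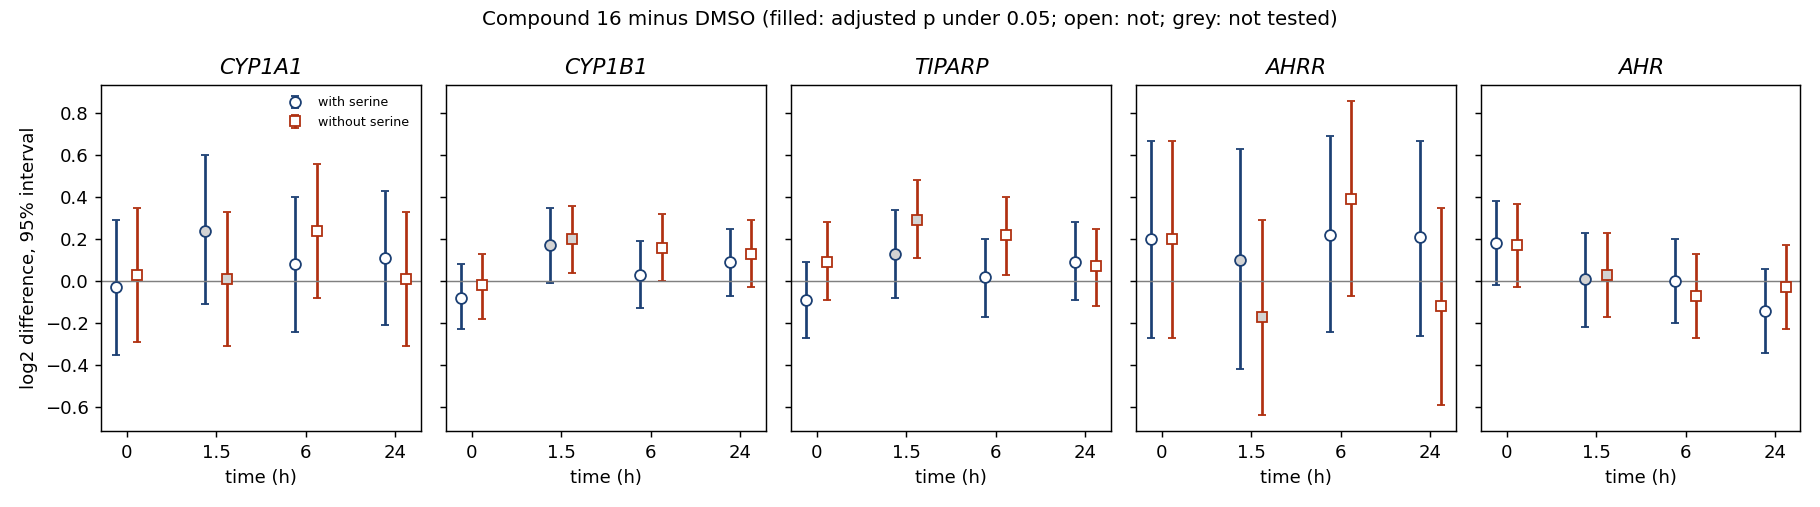
Log2 difference between compound 16 and DMSO (y axis, bars are 95% intervals of the limma fit) for each gene at 0, 1.5, 6 and 24 h, with serine (circles) and without (squares). All tested values lie between -0.14 and 0.39 and none is called; TIPARP without serine is at 0.22 at 6 h.

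Time after the addition was compared within each arm, from 0 h to 6 h and from 6 h to 24 h. CYP1B1 and AHRR rose and fell back in all 4 arms, whereas TIPARP was called higher at 6 h than at 0 h in the arms without serine only, and AHR had 4 calls of 8, all higher. Times lie in separate blocks of the sample numbers, so time and block cannot be told apart. From 0 h to 6 h CYP1B1 rose by 1.06 ± 0.08 with serine and DMSO (2.08-fold, limma adjusted p = 4.96e-12) and by 1.16 ± 0.08 with serine and compound 16 (adjusted p = 8.43e-13). Without serine it rose by 1.29 ± 0.08 in DMSO and 1.47 ± 0.08 under compound 16 (adjusted p = 1.69e-14 and 3.68e-17). From 6 h to 24 h it fell by 1.24, 1.18, 1.51 and 1.53 in the same order, ending at 9.57 to 9.72. From 1.5 h to 6 h, as a description, CYP1B1 changed by -1.01 ± 0.09 and -1.15 ± 0.08 with serine, but by 0.09 ± 0.08 and 0.05 ± 0.08 without.

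AHRR, the repressor, had its highest mean of each arm at 6 h. Its 0 h arrays lay between 5.24 and 6.15 and its 6 h arrays between 6.40 and 7.75, so that no array overlapped in any arm. It rose by 0.91 ± 0.23 and 0.93 ± 0.23 with serine in DMSO and under compound 16 (1.88-fold and 1.91-fold, adjusted p = 0.00565 and 0.00444). Without serine the rises were 1.57 ± 0.23 and 1.76 ± 0.23 (2.97-fold and 3.39-fold, adjusted p = 4.27e-06 and 3.91e-07); the difference between these rises was not tested. The first of the 4 lost its call without the array of serine and DMSO at 0 h that read 5.32 (adjusted p = 0.0532). By 24 h AHRR had fallen by 1.32, 1.34, 1.91 and 2.42 from 6 h, each ± 0.23; the fall of 1.32, with serine in DMSO, had an adjusted p of 0.0615 with only the compared arrays in the fit. At 24 h with serine and DMSO its arrays read 5.38, 4.38 and 5.91, the widest spread of any of its groups.

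TIPARP at 6 h differed from 0 h by -0.03 ± 0.09 and 0.07 ± 0.09 with serine, neither called (adjusted p = 0.875 and 0.652). Without serine it was higher by 0.28 ± 0.09 in DMSO (adjusted p = 0.0244) and by 0.40 ± 0.09 under compound 16 (adjusted p = 0.00123). In DMSO the call was lost with only the compared arrays in the fit (adjusted p = 0.107). Leaving out the 0 h array that read 8.78 (adjusted p = 0.171) also lost it, as did leaving out the 6 h array of 9.27 (0.0853) or 9.25 (0.0715). From 1.5 h TIPARP had come down by 2.28 ± 0.10 and 2.39 ± 0.09 with serine, and by 0.98 ± 0.09 and 1.06 ± 0.09 without. From 6 h to 24 h it fell by 0.48 and 0.63 without serine (adjusted p = 0.000258 and 5.75e-06), with differences of -0.22 and -0.14 with serine that were not called.

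CYP1A1 rose from 0 h to 6 h by 0.58 ± 0.16 and 0.70 ± 0.16 with serine and by 0.55 ± 0.16 without serine under compound 16 (adjusted p = 0.00943, 0.00189 and 0.0106). In DMSO without serine its difference of 0.34 ± 0.16 was not called (adjusted p = 0.123). It fell from 6 h to 24 h by 0.72 ± 0.16 without serine under compound 16 (adjusted p = 0.0017), and by 0.45 and 0.49 in the DMSO arms (adjusted p = 0.0459 and 0.0374). Its other difference there, -0.42 ± 0.16 with serine under compound 16, was not called (adjusted p = 0.0543). Of the 6 calls of this dim gene, all but the fall of 0.72 were lost on leaving out a single array or changing the fit. AHR, whose 17 group means stayed between 10.25 and 10.97, rose from 0 h to 6 h by 0.42 ± 0.10 without serine in DMSO (adjusted p = 0.00169). It rose from 6 h to 24 h by 0.42 ± 0.10 with serine in DMSO (adjusted p = 0.00227), by 0.27 ± 0.10 with serine under compound 16 (adjusted p = 0.0459) and by 0.31 ± 0.10 without serine under compound 16 (adjusted p = 0.0348). Both calls under compound 16 were lost on leaving out 1 of several arrays, with adjusted p up to 0.36.

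Together 30 of 40 values over time were called, 17 of them rises and 13 falls. The shares of all genes called from 0 h to 6 h were 14.3% and 14.5% with serine in DMSO and under compound 16, and 22.4% and 19.9% without serine. From 6 h to 24 h they were 15.5%, 20.1%, 11.8% and 10.6%. In the list of reported targets, 28 of 88 values over time were calls higher and 10 calls lower, EREG falling from 6 h to 24 h by 1.51 ± 0.10 without serine under compound 16 (limma adjusted p = 3.65e-13). PTGS2 rose in that interval by 0.89 ± 0.07 with serine in DMSO (adjusted p = 1.53e-11), unlike CYP1B1 and AHRR. ABCG2 fell from 0 h to 6 h by 0.47 ± 0.06 without serine under compound 16 (adjusted p = 7.82e-07). The receptor complex list had 6 calls higher and 8 lower over time, with HSP90AA1 falling from 6 h to 24 h by 0.44 ± 0.05 with serine under compound 16 (adjusted p = 2.01e-09), HSP90AB1 falling to 6 h by 0.31 ± 0.05 without serine under compound 16 (adjusted p = 9.33e-06) and PTGES3, which encodes p23, rising to 6 h by 0.20 ± 0.06 with serine under compound 16 (adjusted p = 0.0154). The ligand supply list had 7 calls higher and 10 lower. SLC7A5 rose to 6 h by 0.86 ± 0.07 without serine under compound 16 (adjusted p = 6.74e-12), where AFMID fell by 0.45 ± 0.15 (adjusted p = 0.0314), and KYNU fell to 6 h by 0.25 ± 0.05 with serine under compound 16 (adjusted p = 0.000592).

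As a description over the 17 group means, which include the 1.5 h groups, TIPARP and CYP1B1 had a Pearson r of 0.85, CYP1A1 and CYP1B1 0.82, CYP1A1 and AHRR 0.78, CYP1B1 and AHRR 0.55, CYP1A1 and TIPARP 0.51, and TIPARP and AHRR 0.12. AHR had r of -0.13 to -0.32 with the 4 target genes. The groups share their time points and media, so these are not independent points. The 3 genes whose group means were most like those of TIPARP were NR4A3, which encodes an orphan nuclear receptor of the immediate early class (r = 0.96), RND1, which encodes a small GTPase (0.93), and GATA6, a transcription factor gene (0.93). NR4A3 stood at 8.61 ± 0.08 (SD, n = 3) before the change and, with serine in DMSO, at 5.49 ± 0.04 at 0 h, 8.19 ± 0.02 (n = 2) at 1.5 h and 5.18 ± 0.09 at 6 h. Most like CYP1B1 were RCHY1 (0.94), SIM2 (0.94) and PNO1 (0.92), of which SIM2 encodes a transcription factor of the bHLH-PAS family, to which AHR, ARNT and AHRR also belong. Most like AHRR were GPAT3 (0.94), FECH (0.90) and SYNCRIP (0.89). For AHR they were WWTR1 (0.95), GABARAPL2 (0.93) and SLCO1B3 (0.93), and for CYP1A1 SLC2A1 (0.88), PNO1 (0.87) and DIMT1 (0.87). An r compares the shape of the changes and not their size. The group means of RCHY1, SYNCRIP, GABARAPL2 and DIMT1 spanned only 0.42, 0.41, 0.4 and 0.41 log2 units. These are under the median of 0.48 over all genes, while the other genes named as alike spanned 0.54 or more.

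The probe sets of 1 gene did not all behave alike. For CYP1B1, 3 others followed the one used over the 17 groups with r = 0.99 each, and their group means spanned 2.49, 2.49 and 3.11 log2 units. The fifth, with a mean of 4.33, spanned 0.53 (r = 0.39). The second probe set of TIPARP, although dim at a mean of 4.83, spanned 2.89 with r = 0.96. Of the others of AHR, the bright one had r = 0.91 and the dim one 0.63. The second probe set of AHRR spanned 0.38 with r = 0.01, and that of CYP1A1 spanned 0.53 with r = 0.42, so the values of AHRR and CYP1A1 each rest on 1 probe set.

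**Figure D5:**
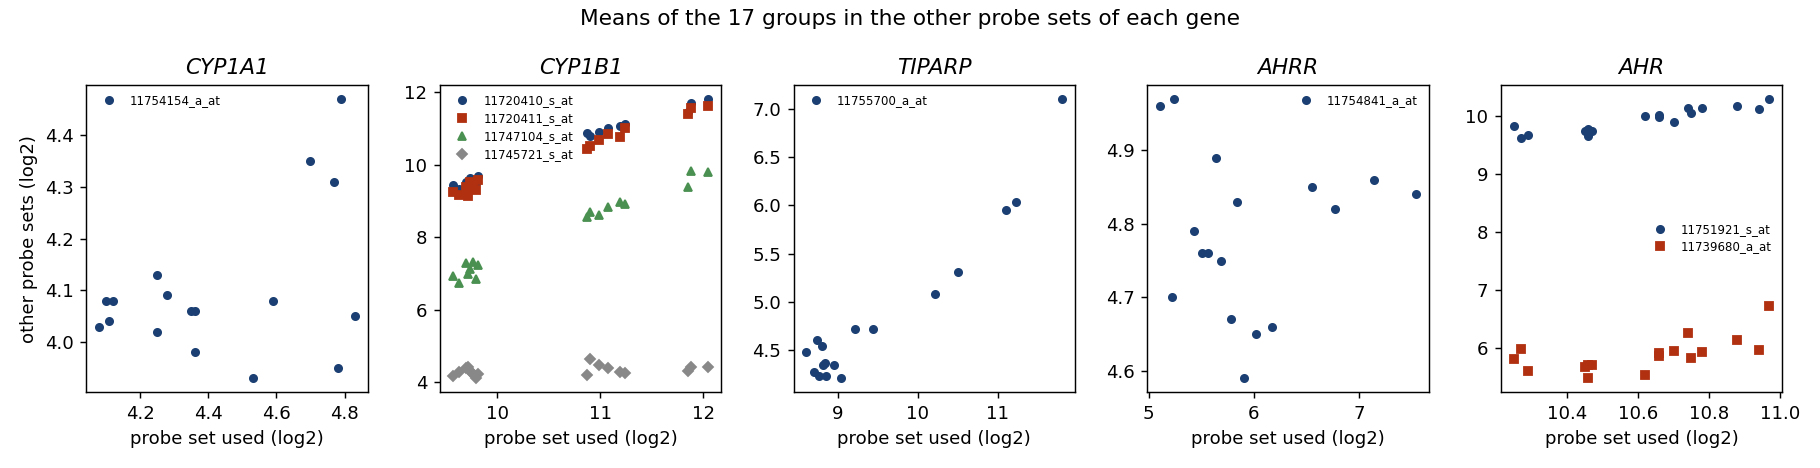
Mean log2 signal of the 17 groups in every other probe set of a gene (y axis) against the probe set used (x axis), with 1 point per group. The bright probe sets of CYP1B1 rise together (r = 0.99). The dim second probe set of TIPARP follows the one used (r = 0.96), whereas that of AHRR does not (r = 0.01).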

How the data were processed

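Total RNA of A549 cells was extracted with Trizol and labelled with biotin, per the labels' protocols, and measured on 50 HG-U219 arrays. The deposited values are log2 signals per probe set, computed by the authors with RMA, per the submitters' processing notes, which also name limma; versions of neither are given in the sources used here. RMA summarises probes and normalises between arrays, so it removes shifts shared by all genes and compresses changes of dim genes. Of 49386 probe sets 45259 name 1 gene in the platform annotation and gave 18239 genes; 1327 with several symbols and 2800 with none were left out. All arrays entered 1 fit of 17 group means in limma 3.58.1 (R 4.3.3) with eBayes, 33 residual and 3.7 prior degrees of freedom, and 25 tested comparisons; the median SE of 3 against 3 arrays was 0.122. The fit was tested on simulated data. The 5 genes, the pathway lists and the tests were chosen with earlier results of these data known. Named were the 5 genes, the 3 genes most like each over group means, and per list and kind of comparison up to 3 called genes with the smallest p. Symbols that start with LOC were passed over in choosing the most alike genes. Alternatives were a filter on dim genes, quantile normalization, median centring, all probe sets, other arrays in the fit, array weights, another prior and leaving out each array. Promoter sequences are RefSeq's (GRCh38.p14). UGT1A6, SERPINB2 and some other list members are not reported here.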

Additional observations from a re-analysis of the deposited data

How the results depend on the processing

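Of the counts of calls over the 5 genes, that for compound 16 without serine was 0 and became 2 with the mean of all probe sets of a gene (CYP1B1 higher and AHR lower at 24 h). The count for serine lack in DMSO was 1; it became 3 with the mean of all probe sets, 0 with only the arrays of the comparison in the fit, and ran from 0 to 1 when single arrays were left out. The count for the change of medium was 7 and became 4 with only the arrays of the comparison. The other counts stayed within 1.5 times their value in every alternative run. Where a call of the report turned its sign, it did so only in a dim probe set of the gene. In that of CYP1B1, serine lack under compound 16 at 6 h gave -0.37, the change from 0 h to 6 h with serine in DMSO -0.03, and that from 6 h to 24 h 0.08 with serine in DMSO and 0.13 without serine under compound 16. In that of AHRR, the change of medium without serine gave 0.11, 0 h to 6 h with serine -0.04 in DMSO and -0.01 under compound 16, and 6 h to 24 h without serine 0.11 in DMSO and 0.12 under compound 16. In that of CYP1A1, 0 h to 6 h under compound 16 gave -0.08 with serine and -0.04 without, and in that of AHR 0 h to 6 h without serine in DMSO gave -0.04. The cause was not tested. Centring moved the median of all genes by -0.03 to 0.07. No paired analysis was possible because no groups share the numbers in their titles.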
